A study of Mus musculus with 48 samples.

Results

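Neurexins and neuroligins were followed here through 5 genes, Nrxn2, Nrxn3, Nlgn1, Nlgn2 and Nlgn3, which were chosen by name as 1 adhesion family. Their members are the m6A immunoprecipitation (m6A-IP) regions that touch the body of 1 of these genes on mouse genome build mm9, where a region joins the peaks of all animals that overlap by at least 1 bp. They came to 153 of the 81807 regions of the series and held 1760 of its 857395 peaks. The 10 deposited comparison tables named the 5 genes in 220 rows.

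Neurexins are presynaptic membrane proteins and neuroligins are their postsynaptic partners, and the pair bridges the synaptic cleft and helps to set what kind of synapse forms. Each neurexin gene spans a very long stretch of DNA and makes a long alpha form and a short beta form from an internal start, both of which are spliced in many ways. Nlgn1 protein is found mainly at excitatory synapses, Nlgn2 protein at inhibitory ones and Nlgn3 protein at both. N6-methyladenosine (m6A) is a methyl mark on adenosines inside RNA, placed mostly in long exons and around the stop codon, and an m6A-IP peak is a stretch where RNA fragments pulled down with an antibody against the mark outnumber those of the untreated input RNA.

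The RNA came from the hippocampus of male mice that were HdhQ7/7 (WT) or HdhQ7/Q111 (KI), littermates on a C57BL/6 background. Hdh is the mouse huntingtin gene, and the KI allele is 1 copy of it with a lengthened CAG repeat at its own locus, a model of Huntington's disease that every cell of the animal carries. Mice were 5 or 8 months old, and were either naive (c, not trained) or trained (tr) in an object location task and killed shortly afterwards, which gave 8 conditions of 3 animals each, written WT_c5, KI_c5, WT_tr5, KI_tr5, WT_c8, KI_c8, WT_tr8 and KI_tr8. Each of the 24 animals had its own peak list against its own input library, so that 12 animals stood against 12 for genotype, training and age. The hippocampus is a mixture of cells, and in such bulk RNA fewer cells of a type and less RNA per cell cannot be told apart.

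Peak lists held 22601 to 57293 peaks per animal (median 33826), and KI lists were 1.18-fold longer than WT lists (exact permutation p = 0.028) while lists at 8 months were 1.19-fold longer than at 5 months (exact permutation p = 0.0177). Lists of trained animals were 0.87 times as long as those of naive animals, with means of 33238 and 38211 peaks (exact permutation p = 0.0641). The lists of 2 naive KI animals of 8 months stood apart, with 51735 and 57293 peaks of a median length of 172 and 197 bp. All 24 libraries carried the name of the same sequencing lane, and read depth is unknown from peak lists, so a missing peak says only that none was called there. All 7 markers of hippocampal neurons that were looked up had a peak in every animal, and 1 to 4 of 6 choroid plexus markers had one in an animal, with Ttr and Aqp1 in none. Between 5 and 6 of 6 striatal markers, 3 to 5 of 5 oligodendrocyte, 3 to 5 of 5 astrocyte and 4 to 5 of 5 microglial markers had a peak in an animal, and their part in the results was not tested.

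The regions of the 5 genes divided sharply between exons and introns. Nrxn3 and Nlgn1, the longest genes, carried most of their regions far inside introns, whereas Nlgn2 and Nlgn3 carried most of theirs in exons, and Nrxn2 stood between them. Exons make up 0.652% of the length of Nrxn3 and 0.621% of Nlgn1, against 7.35% in Nrxn2, 39.1% in Nlgn2 and 28.4% in Nlgn3. Per 100 kb of intron, however, Nrxn3 had 3.37 and Nlgn1 4.87 intronic regions, fewer than Nrxn2 (9.47), Nlgn2 (11.2) and Nlgn3 (13.9), and those of Nlgn2 and Nlgn3 rest on 1 and 3 regions. Each peak was assigned by its summit to coding sequence (CDS), 3'UTR, 5'UTR or intron of protein-coding transcripts in that order. A region took the most frequent class among the summits of all its peaks in all animals. By this rule 50 of the 153 regions were exonic and 103 intronic, and 100 of the intronic regions had no base in common with an annotated exon. A peak was called in all 24 animals in 14 of 50 exonic regions (28%, against 23.4% of exonic regions of all genes) and in 14 of 103 intronic regions (13.6%, against 7.13%). At the other end, 30 regions were called in 1 animal. Of the 153 regions, 71 were called in 3 to 21 animals and could be tested for a difference in calls.

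**Figure D1:**
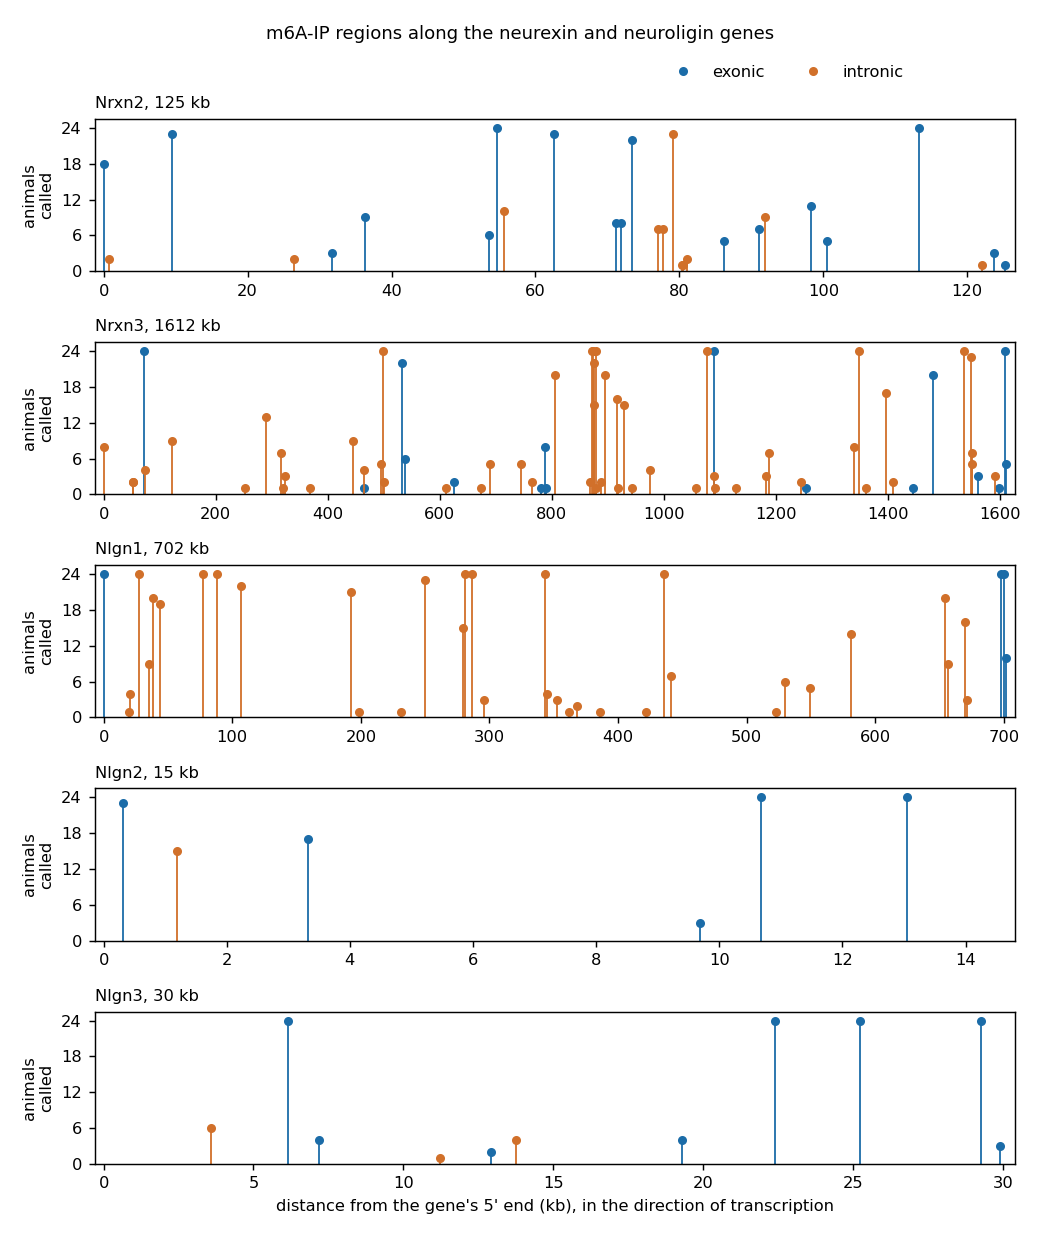
Each vertical line is 1 m6A-IP region, placed by its distance in kb from the 5' end of the gene (x axis, a separate scale for each gene), and its height is the number of animals of 24 with a peak there (y axis). Blue marks exonic and orange intronic regions. Nrxn3 and Nlgn1 show intronic regions called in all 24 animals deep inside the gene, and in Nlgn2 and Nlgn3 the regions called in all animals are exonic.

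Nrxn2 (chr19:6418731-6544169, plus strand, 125 kb) had 28 regions, of which 17 were exonic, 13 of them in the CDS, and 11 were intronic. Its regions called in all 24 animals lay in the CDS at chr19:6473100-6473752 and at chr19:6530981-6533154. The second of these also touches the annotated gene Gm14964, and since peaks carry no strand their reads cannot be assigned to one of the overlapping genes. The region at chr19:6497217-6498494 was called in 23 animals. Its summits lay most often in an intron. The region encloses the start of the short transcripts of the gene at position 6497828. These code for 1980 and 1059 bases against up to 5130 for the long ones. The 11 intronic regions lay close to exons, at a median of 0.675 kb.

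Nrxn3 (chr12:89961320-91573375, plus strand, 1612 kb) had 70 regions, the most of the 5 genes. Of these, 54 were intronic, at a median distance of 40.5 kb and up to 134 kb from the nearest exon. A peak was called in all animals in 3 exonic regions, which were the 5'UTR region chr12:91050863-91052031 at the start of the short transcripts (position 91050923), the CDS region chr12:90032912-90034233, which encloses the start of a long transcript (position 90032948), and the CDS region chr12:91569788-91571800 near the 3' end of the gene. A further 7 intronic regions were called in all animals, among them neighbouring regions at chr12:90833389-90834209, chr12:90835753-90836286 and chr12:90839482-90840092.

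Nlgn1 (chr3:25330733-26032656, minus strand, 702 kb) had 38 regions, of which 34 were intronic, at a median of 69.8 kb and up to 220 kb from an exon. Of its regions 4 were exonic, and 3 of them, in the CDS towards both ends of the gene, were called in all animals (chr3:25331730-25333538, chr3:25334808-25335692 and chr3:26032198-26033160). As in Nrxn3, 7 intronic regions were called in all animals. Nlgn2 (chr11:69636624-69651286, minus strand, 15 kb) had 6 regions, and the 3'UTR region chr11:69636691-69639778 and the CDS region chr11:69640263-69640941 were called in all animals. Nlgn3 (chrX:98491178-98521302, plus strand, 30 kb) had 11 regions, of which 8 were exonic and 4 were called in all animals, 2 of these in the CDS and 2 in the 3'UTR.

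The share of a gene's peaks that lay in introns set Nlgn1 and Nrxn3 apart from the other genes in every animal. It was 83.0% ± 2.59 (SD, n = 24 animals, 77.8% to 88%) in Nlgn1 and 70.8% ± 7.34 (60.5% to 86.4%) in Nrxn3. It was 26.8% ± 14.9 (0% to 53.3%) in Nrxn2, 10.4% ± 7.84 in Nlgn2 and 7.23% ± 10.2 in Nlgn3, against 31.6% ± 4.73 over all protein-coding genes. The ranges of Nlgn1 and Nrxn3 overlapped each other but not those of the other members. Over all genes the intron share was 34.0% at 5 months and 29.2% at 8 months. For Nrxn3 the condition means ran from 65.2% ± 6.42 in KI_c8 to 78.5% ± 6.84 in KI_tr5 (n = 3 each), and for Nlgn1 from 80.7% ± 1.94 in WT_c8 to 84.6% ± 2.93 in WT_c5. With 3 animals against 3 an exact permutation test cannot give a p below 0.1.

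The letters under the summits also differed between exonic and intronic regions. Windows of 101 bases centred on the highest summit of a region were read from mm9 in the sense of the gene and searched for GGAC, the core of the most used m6A sequence, on both strands. In the sense of the gene it was present in 25 of 50 exonic windows (50%, against 42.6% of exonic windows of all genes) and in 22 of 103 intronic windows (21.4%, against 29.3%). On the other strand it was present in 40% and 8.74% of the members' windows, against 30.3% and 17.98%. A second feature was noticed in the windows themselves, unbroken runs of at least 20 bases of A and G. Such a run stood in 31 of 103 intronic windows (30.1%, against 17.7% of intronic windows of all genes) and in 0 of 50 exonic windows (1.25% of all). The intronic runs were in 23 of 54 windows of Nrxn3 and 8 of 34 of Nlgn1 and in no intronic window of Nrxn2, Nlgn2 or Nlgn3. Runs of C and T of that length stood in 6 of the 103 windows (3.68% of all intronic windows). A match is a description of the letters and no evidence of a methylated base.

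Windows of the regions that the results below turn on are printed here 5' to 3' in the sense of the gene (mm9, plus strand for Nrxn2, Nrxn3 and Nlgn3 and minus strand for Nlgn1), first those read for GGAC, which is in capitals. They are a CDS window of Nrxn2 where calls were made at 8 months only, whose first GGAC spans the border from intron to exon and whose last 50 bases are coding, the Nrxn2 intron window of the largest difference in the comparison tables, and an Nrxn3 intron window called mostly in naive animals. The first Nlgn1 intron window was called mostly in KI animals and the second was listed between naive and trained WT animals of 5 months, and the Nlgn3 CDS window had the lowest p of the members for enrichment. The first Nlgn1 window and the Nlgn3 window hold no GGAC.
Nrxn2 chr19:6509727-6509827: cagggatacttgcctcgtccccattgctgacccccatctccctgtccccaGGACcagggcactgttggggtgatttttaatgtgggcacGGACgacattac
Nrxn2 chr19:6474407-6474507: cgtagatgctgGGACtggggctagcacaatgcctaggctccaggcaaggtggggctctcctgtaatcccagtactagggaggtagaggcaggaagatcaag
Nrxn3 chr12:90890602-90890702: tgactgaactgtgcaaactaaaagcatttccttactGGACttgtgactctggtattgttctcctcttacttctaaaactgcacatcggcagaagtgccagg
Nlgn1 chr3:25997444-25997544: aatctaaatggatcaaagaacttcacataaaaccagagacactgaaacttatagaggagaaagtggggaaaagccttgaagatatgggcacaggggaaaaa
Nlgn1 chr3:25378306-25378406: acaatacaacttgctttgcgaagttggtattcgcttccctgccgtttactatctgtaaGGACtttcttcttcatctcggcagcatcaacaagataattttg
Nlgn3 chrX:98513508-98513608: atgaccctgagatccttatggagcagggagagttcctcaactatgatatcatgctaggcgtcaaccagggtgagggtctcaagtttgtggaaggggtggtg

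The next windows are all from introns of Nrxn3 (mm9, plus strand) and show runs of A and G, with each run of at least 20 bases in capitals. The first lies in a region with no call in KI_tr8, and the second in a region whose calls were all at 5 months.
Nrxn3 chr12:90768162-90768262: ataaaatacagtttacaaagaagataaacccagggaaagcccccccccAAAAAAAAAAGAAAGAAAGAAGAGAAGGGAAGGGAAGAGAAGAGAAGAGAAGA
Nrxn3 chr12:91149434-91149534: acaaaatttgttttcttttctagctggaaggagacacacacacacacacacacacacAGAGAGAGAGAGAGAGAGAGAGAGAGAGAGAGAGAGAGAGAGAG

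The runs are 53 and 44 bases long, and neither window contains GGAC in the sense of the gene.

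Among the members' 28 regions called in every animal, the highest enrichment was found in introns of Nrxn3 and Nlgn1. As a set the members lay below the series. The median of the regions' medians was 4.36-fold in their intronic regions, against 6.29-fold in those of all genes. In exonic regions it was 4.12-fold, against 5.27-fold. Enrichment is the fold of IP over input that MACS2 gives at a peak's summit, a ratio and not a read count. The highest was in the Nrxn3 intron at chr12:91498155-91498762, with a median of 10.1-fold over 24 animals (5.31 to 25.2). The whole window of 101 bases at its summit is an unbroken run of A and G and holds no GGAC. The next were the Nrxn3 intron at chr12:90839482-90840092 (7.27-fold, 4.01 to 13.5), the Nlgn1 intron at chr3:25750690-25752134 (6.75-fold, 4.50 to 9.92) and the Nlgn1 CDS at chr3:25331730-25333538 (6.46-fold, 3.98 to 9.80). The region at the start of the short Nrxn3 transcripts followed at 6.38-fold (2.76 to 9.63). These ranges overlap one another. The lowest medians were 2.49-fold in the Nrxn2 CDS at chr19:6530981-6533154 and 2.69-fold in the Nlgn2 CDS at chr11:69640263-69640941. The Nlgn2 3'UTR region held 4.13-fold with the narrowest spread of the 28 (3.30 to 4.90).

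**Figure D2:**
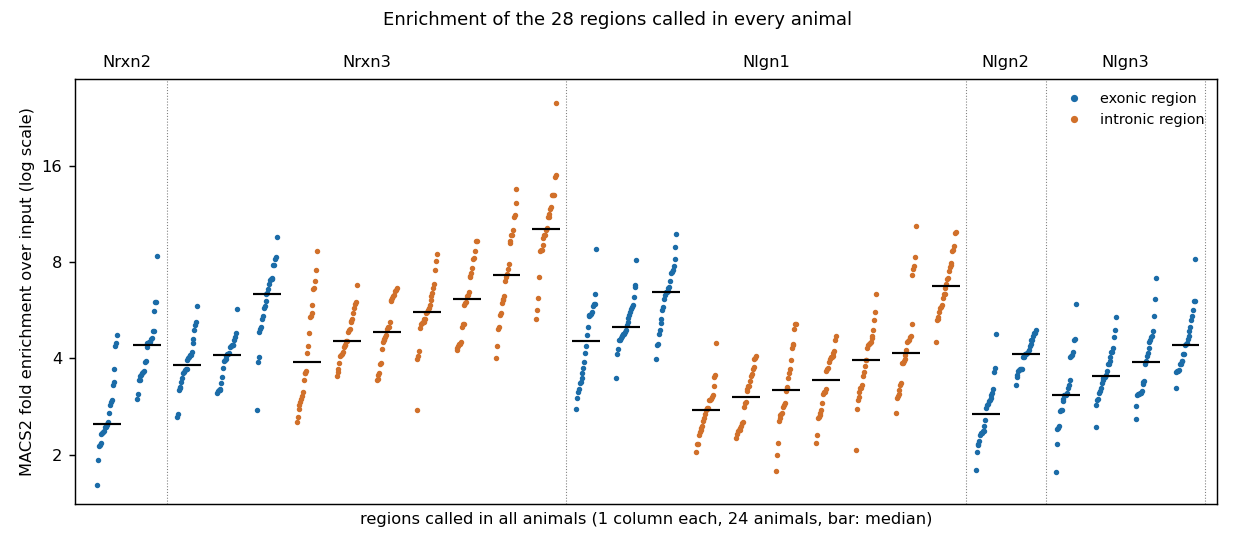
Each column is 1 of the 28 regions called in all 24 animals, grouped by gene, and each point is 1 animal, sorted within the column. The y axis is the MACS2 fold enrichment over input on a log scale, the bar is the median, and blue and orange mark exonic and intronic regions. The orange columns of Nrxn3 reach a median of 10.1, while the 4 columns of Nlgn3 have medians from 3.08 to 4.42.

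Within an animal, intronic and exonic peaks of the same gene differed in opposite directions in Nrxn3 and Nlgn1. The mean log2 enrichment of exonic peaks less that of intronic peaks was -0.54 ± 0.19 (SD) in Nrxn3, with intronic peaks higher in 24 of 24 animals, and +0.32 ± 0.19 in Nlgn1, with exonic peaks higher in 24 of 24. In Nrxn2 the difference was -0.33 ± 0.29, with intronic peaks higher in 20 of the 22 animals that had both kinds. Over all protein-coding genes it was -0.16 ± 0.05. Nlgn2 (16 animals with both kinds, 8 each way) and Nlgn3 (9 animals, exonic higher in 4) showed no common direction.

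Nrxn2 had the lowest p of the members in a comparison of peaks per gene between 8 and 5 months, but it did not pass the adjusted threshold. Most of the difference was in exonic peaks, in a series where lists were longer and the intron share lower at 8 months. Exonic peaks of Nrxn2 numbered 3, 6 and 9 in WT_c5, 8, 8 and 8 in KI_c5, 5, 6 and 7 in WT_tr5 and 8, 9 and 10 in KI_tr5. At 8 months they numbered 7, 10 and 14 in WT_c8, 12, 20 and 20 in KI_c8, 9, 11 and 12 in WT_tr8 and 8, 11 and 19 in KI_tr8. The highest counts came from KI animals of 8 months and the lowest from WT animals of 5 months, and the ages overlapped between 7 and 10. The mean was 12.8 ± 4.58 (SD) against 7.25 ± 1.96 exonic peaks (exact permutation p = 0.0004, n = 12 and 12, 1 of 30 unadjusted tests of exonic or intronic counts). Intronic peaks of Nrxn2 numbered 4.17 ± 3.10 and 3.17 ± 1.85 (exact permutation p = 0.413). Exonic peaks were also more numerous at 8 months in Nlgn2, with 6.08 ± 1.24 against 4.67 ± 0.888 (exact permutation p = 0.004), and in Nrxn3, with 9.17 ± 2.59 against 6.83 ± 1.75 (exact permutation p = 0.017). Between genotypes Nrxn2 had 11.8 ± 4.96 exonic peaks in KI and 8.25 ± 3.17 in WT (exact permutation p = 0.0149), and these p-values are not adjusted. No share over all genes is given here for exonic counts. Whole lists held a mean of 38869 peaks at 8 and 32580 at 5 months, and 38715 in KI against 32735 in WT. The intron share over all genes was 29.2% at 8 and 34.0% at 5 months. The part of these values in the members' exonic counts was not tested. The exonic comparison was not repeated without the 2 longest lists, which hold the counts of 20 in KI_c8.

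Exonic and intronic peaks together came to 16.9 ± 4.21 in Nrxn2 at 8 months and 10.4 ± 3.26 at 5 months (exact permutation test within genotype and training, p = 0.0005, adjusted p = 0.0501 over 12729 genes). Nlgn2 had 6.92 ± 1.38 against 5.17 ± 1.03 (permutation p = 0.00131, adjusted p = 0.0558) and Nlgn3 5.92 ± 2.15 against 4.5 ± 0.674 (permutation p = 0.0303, adjusted p = 0.203). Nrxn3 had 27.6 ± 6.54 against 28.4 ± 9.43 and Nlgn1 20.3 ± 4.54 against 20.5 ± 3.23. Thus 3 of the 5 genes had an unadjusted p under 0.05 for age, as had 18.5% of all genes, all but 59 of them with more peaks at 8 months. None of the 12729 genes passed an adjusted p of 0.05 in this permutation test for age, genotype or training. For genotype 1 of the 5 had an unadjusted p under 0.05 (background 6.1%), Nlgn2 with 6.58 ± 1.08 peaks in KI and 5.5 ± 1.68 in WT (permutation p = 0.0491, adjusted p = 0.778). For training none had (background 3.11%), and the lowest p was that of Nrxn3, with 24.9 peaks in trained and 31.1 in naive animals (permutation p = 0.0667). Most genes of the series with an unadjusted p under 0.05 went the same way, 773 of 776 with more peaks in KI and 389 of 396 with more in naive animals.

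The number of peaks in the whole list moved with age as well. When every list was trimmed to an equal number of its best peaks, 8.27% of 11183 genes had an unadjusted permutation p under 0.05 for age, and 0 passed after adjustment. Nrxn2 then had 9.67 peaks at 8 and 6.83 at 5 months (permutation p = 0.00332, adjusted p = 0.245). Nrxn3 and Nlgn1 had fewer at 8 months, 17.3 against 21.6 (permutation p = 0.0255, adjusted p = 0.492) and 14.7 against 17.3 (permutation p = 0.0327, adjusted p = 0.532). Nlgn2 had 5.42 against 4.17 (permutation p = 0.0332, adjusted p = 0.532), and Nlgn3 had 4.08 against 4.17 (permutation p = 1), so that its direction turned. With only peaks of a -log10 q of at least 5 the p of Nlgn3 was 0.824 by the permutation test. Without the 2 longest lists Nrxn2 had 15.7 against 10.4 peaks (permutation p = 0.00253, adjusted p = 0.172), and with each region counted once per animal 13.8 against 8.25 (permutation p = 0.00065, adjusted p = 0.0473, 258 of 12765 genes called).

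**Figure D3:**
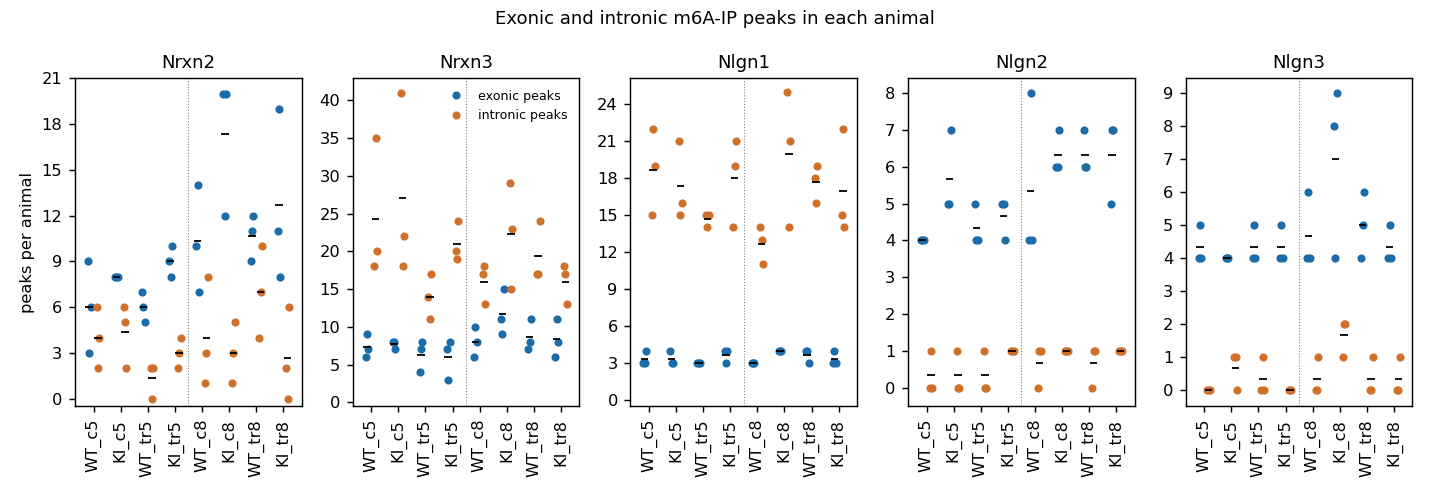
Each panel is 1 gene and each point 1 animal of the condition on the x axis, with exonic peaks in blue, intronic peaks in orange and the mean of 3 animals as a bar. The y axis is the number of peaks and differs between panels, and the dotted line parts 5 from 8 months. Exonic peaks of Nrxn2 reach 20 in KI_c8, and in Nlgn1 the exonic peaks stay between 3 and 4 in every animal.

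Between conditions of 3 animals, 4 of 40 comparisons of peaks per gene did not overlap, each with an exact permutation p of 0.1, the smallest that 3 against 3 can give. Over all 12729 genes the share without overlap was 2.68% for KI_c5 against WT_c5, 4.99% for KI_c8 against WT_c8, 6.35% for KI_tr5 against WT_tr5 and 1.78% for KI_tr8 against WT_tr8. For trained against naive animals it was 3.07% in WT and 1.55% in KI at 5 months, and 1.7% in WT and 6.08% in KI at 8 months. The whole lists of KI_c8 had a mean of 48992 peaks, against 34843 in WT_c8 and 33735 in KI_tr8, and those of KI_tr5 35543 against 25767 in WT_tr5, and their part in the members' counts was not tested. Nlgn1 had 18 to 29 peaks in KI_c8 and 14 to 17 in WT_c8, a mean of 24 against 15.7. It had 20 to 22 in WT_tr8, again above WT_c8, a comparison that uses the same WT_c8 animals. Nrxn2 had 11 to 14 peaks in KI_tr5 and 6 to 9 in WT_tr5. Nlgn3 had 6 to 11 in KI_c8 and 4 to 5 in KI_tr8.

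Single regions were compared by the number of animals with a peak. For genotype 1 of the 71 tested member regions had an unadjusted p under 0.05 (background 1.79% of 35110 regions) and for training 1 (background 1.44%), which is close to the background share. Of the regions of the series under that p, 605 of 629 had more calls in KI for genotype. For training, 459 of 504 had more calls in naive animals. For age there were 9 (12.7%, background 9.8%), and 8 of the 9 had more calls at 8 months, as had 3111 of the 3440 regions of the series. No member region passed an adjusted p of 0.05 by Fisher's exact test (smallest adjusted p 1, 1 and 0.256), and over all regions 1, 0 and 0 did.

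The Nlgn1 intron region chr3:25997165-25997684, 34.5 kb from an exon, was called in 1 animal of WT_c5 and in none of WT_tr5, WT_c8 and WT_tr8. It was called in 2 of 3 animals of each of the 4 KI conditions, with 2.78 to 6.65-fold enrichment where called. That made 8 of 12 KI and 1 of 12 WT animals (Fisher's exact p = 0.00942, adjusted p = 1). Without the 2 longest lists the p was 0.00619, with only peaks that cover at least 50% of the region it was 0.317, and with only peaks of a -log10 q of at least 5 it was 0.217.

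The Nrxn3 intron region chr12:90890487-90890832 was called in 3, 3, 2 and 3 animals of WT_c5, KI_c5, WT_c8 and KI_c8 and in 0, 2, 2 and 0 of WT_tr5, KI_tr5, WT_tr8 and KI_tr8. Naive animals had 11 calls of 12 and trained animals 4 of 12 (Fisher's exact p = 0.00942, adjusted p = 1). Enrichment where called was 2.64 to 4.27-fold, and with only peaks of a -log10 q of at least 5 the p was 0.667. Another Nrxn3 intron region, chr12:90767982-90768347, was called in 20 animals at 3.13 to 10.2-fold and in none of the 3 KI_tr8 animals. It was called in all 3 animals of each other condition but WT_c8, where 2 had it. This region was picked for having no call in KI_tr8 and had no unadjusted p under 0.05 in a call test. The share of all regions that are missing from 1 whole condition in this way is not given here.

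Of the 9 regions with an unadjusted p under 0.05 for age, 7 lay in the CDS of Nrxn2, 1 in the CDS of Nrxn3 and 1 in an intron of Nrxn3. The Nrxn2 regions were spread over the gene from chr19:6454795-6455206 to chr19:6519174-6519297 and were called in 5 to 11 animals, with 0 to 2 calls among the 12 animals of 5 months. At chr19:6509642-6509903, printed above, a peak was called in 1, 3, 2 and 1 animals of WT_c8, KI_c8, WT_tr8 and KI_tr8 and in none of 5 months (Fisher's exact p = 0.00458, adjusted p = 0.256). In 6 of the 7 regions no condition had more calls than KI_c8, which holds the 2 longest lists, and in the other KI_tr8 had 3 calls and KI_c8 2. The Nrxn3 CDS region chr12:90748689-90749084 was called in 7 animals of 8 and 1 of 5 months (Fisher's exact p = 0.0272). The opposite was seen at the Nrxn3 intron chr12:91149306-91149756, with 7 calls at 5 months, 2, 1, 2 and 2 in WT_c5, KI_c5, WT_tr5 and KI_tr5, and none at 8 months (Fisher's exact p = 0.00458). With lists of equal length none of the 9 kept a p under 0.05 (3 of them could not be tested), and without the 2 longest lists 5 of them did.

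**Figure D4:**
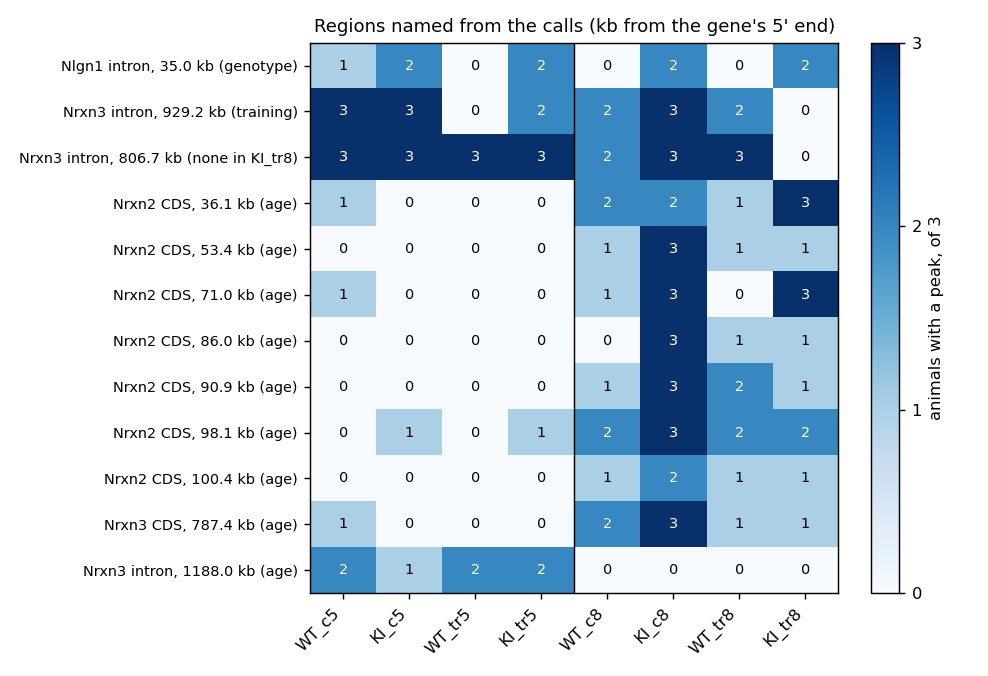
Rows are the member regions with an unadjusted p under 0.05 in the comparison named in brackets, labelled by distance in kb from the 5' end of the gene. The region with no call in KI_tr8 was added for that pattern and not by a test. Columns are the 8 conditions, and colour and digit give how many of 3 animals had a peak. Nrxn2 rows are pale on the left of the line, at 5 months, and 1 Nrxn3 intron row shows the reverse, with 7 calls at 5 months and none at 8 months.

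Enrichment itself was compared in the 28 regions called in all animals with limma, on log2 values centred on the median of each animal. No member region passed an adjusted p of 0.05 in any of the 13 contrasts, and 0 to 3 of 28 had an unadjusted p under 0.05, where 390 to 938 of the 12187 regions of the series did and 0 to 2 passed after adjustment. For genotype over all animals it was 2 of 28 (background 4.01%), for training 1 (3.77%) and for age 1 (7.7%).

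The lowest p was at the Nlgn3 CDS region chrX:98513125-98514018 between trained animals of 8 months, where the 3 KI_tr8 animals had 6.13, 7.15 and 4.51-fold and the 3 WT_tr8 animals 3.12, 4.32 and 2.60-fold enrichment. The groups did not overlap, and KI was higher by 0.82 ± 0.28 (log2, SE), with a limma p of 0.00761 and an adjusted p of 0.998. At the Nrxn3 intron chr12:90839482-90840092 the 3 KI_tr8 animals had 11.2, 9.72 and 12.2-fold and the 3 KI_c8 animals 4.37, 6.13 and 7.62-fold. KI_tr8 was higher by 0.90 ± 0.36 (log2, SE), with a limma p of 0.0194 and an adjusted p of 0.816. In this contrast 729 of the 12187 regions had an unadjusted limma p under 0.05. The Nrxn2 CDS region chr19:6473100-6473752 was lower in trained than in naive animals, with a log2 difference of -0.33 ± 0.14 (SE), a limma p of 0.0253 and an adjusted p of 1. The Nlgn1 intron chr3:25596431-25596919 was lower at 8 than at 5 months, with a log2 difference of -0.34 ± 0.13 (SE), a limma p of 0.0159 and an adjusted p of 0.545. In Nlgn2 the lowest limma p was 0.462, for age at chr11:69640263-69640941.

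The deposited comparison tables list peaks by another quantity, the log2 mean of normalized IP read counts of a condition, which is not divided by input as the enrichment is. Only peaks within a p limit of 0.05 were kept in them, the animals of a condition are merged into 1 mean, and their rows are given here as the authors' means, with no test. The column names are the same in all tables and fit only KI_c8 against WT_c8, so the order of the groups in the others follows the study's design text. Of all peaks with a difference over 1 in the 8 tables of single conditions, 60.7% to 77.5% were called in more animals of the condition with the higher mean under this order, and 0.55% to 7.31% in fewer. A listed peak was set against the regions found in at least 2 of 3 animals of either condition. In KI_tr8 against WT_tr8, 30 of 69 such member regions held a listed peak (43.5%, background 20.1% of 33766 regions). In WT_c8 against WT_tr8 it was 31 of 68 (45.6%, background 23.2%) and in WT_c5 against WT_tr5 25 of 61 (40.98%, background 20.4%). In KI_c8 against KI_tr8 it was 27 of 83 (32.5%, background 17.4%) and in KI_c5 against KI_tr5 21 of 70 (30%, background 22.4%). The remaining genotype tables were nearer to their background. KI_c5 against WT_c5 listed 15 of 70 (21.4%, background 18.5%), KI_tr5 against WT_tr5 13 of 62 (20.97%, background 18.1%) and KI_c8 against WT_c8 9 of 83 (10.8%, background 16.1%). The tables of all naive against all trained animals gave 10 of 76 at 5 months (13.2%, background 11.5%) and 26 of 89 at 8 months (29.2%, background 17.2%), and their group means were not used here because it is not settled which animals they pool. Tables that share a condition share its 3 animals.

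In both tables of 8 months that hold WT_tr8, the listed exonic and intronic peaks of these genes lay mostly on opposite sides. In KI_tr8 against WT_tr8 all 12 exonic rows had a higher authors' mean in KI (median difference +0.33, log2), where 69.1% of exonic rows of all genes did. Of the 20 intronic rows 16 were lower in KI (median -0.50), and 35.6% of the intronic rows of all genes were higher there. The 12 exonic rows came from Nrxn2 (6), Nlgn2 (3), Nlgn3 (2) and Nrxn3 (1), and the lower intronic rows included 9 of 9 of Nlgn1 and 6 of 8 of Nrxn3. Rows are not all separate regions. The Nrxn2 regions chr19:6427594-6428826 and chr19:6491198-6492973 each held more than 1 of the exonic rows. In WT_c8 against WT_tr8, which uses the same WT_tr8 animals, all 12 exonic rows were higher in naive (all genes 60.4%) and 17 of 20 intronic rows higher in trained animals (29.02% of those of all genes were higher in naive). More than 1 of these intronic rows lay in the Nrxn3 region chr12:91037850-91039310. In KI_c8 against KI_tr8 the exonic rows were higher in naive in 11 of 12 (all genes 54.1%) and the intronic rows in 10 of 15 (all genes 57.0%). The same direction was thus common among the listed intronic rows of all genes in the tables with WT_tr8, and the intron share of all peaks was 31.3% in WT_tr8, 28.8% in WT_c8 and 28.5% in KI_tr8. The part of these library-wide values in the members' rows was not tested. Enrichment in the regions called in all animals gave no such split, with KI_tr8 above WT_tr8 in 7 of 14 exonic and 5 of 14 intronic member regions.

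In the tables of 5 months that hold WT_tr5, exonic and intronic rows went mostly the same way. In WT_c5 against WT_tr5 naive means were higher in 6 of 8 exonic and 16 of 17 intronic rows, and 82.8% and 84.7% of all listed exonic and intronic rows were. In KI_tr5 against WT_tr5 KI means were higher in 4 of 5 exonic and 7 of 8 intronic rows (all genes 81.0% and 73.3%). KI_c5 against WT_c5 had 3 of 10 and 2 of 5 higher in KI (all genes 25.6% and 54.5%), KI_c8 against WT_c8 1 of 2 and 5 of 7 (61.1% and 70.6%), and KI_c5 against KI_tr5 5 of 10 and 6 of 13 higher in naive (39.7% and 68.5%).

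**Figure D5:**
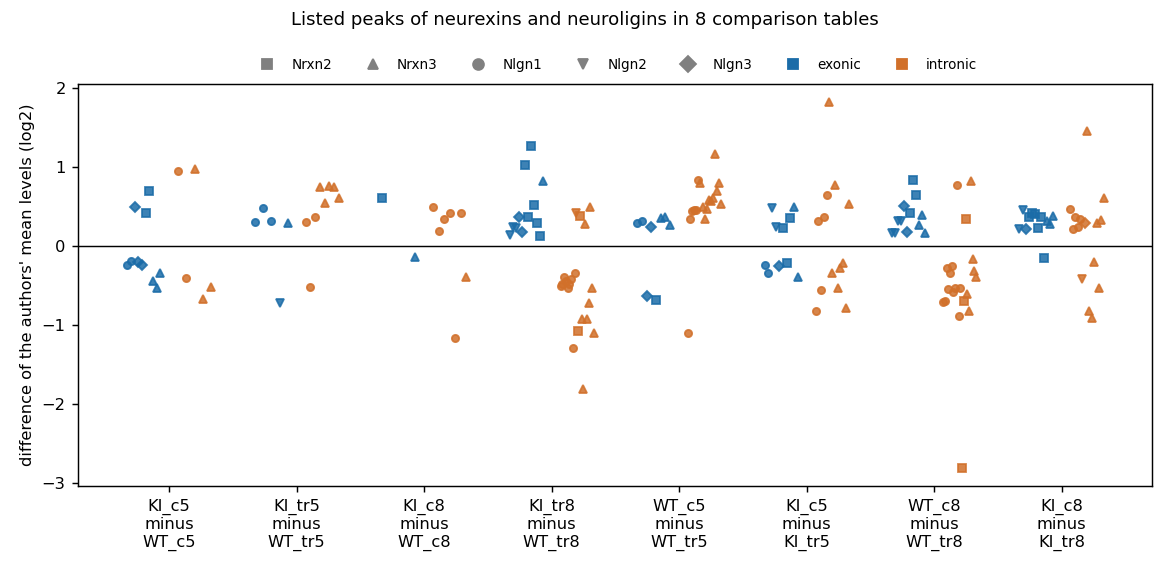
Each point is 1 listed peak of a neurexin or neuroligin gene in the comparison on the x axis, and the y axis is the difference of the authors' mean levels (log2). Shape gives the gene, blue marks exonic and orange intronic rows. In KI_tr8 minus WT_tr8 all 12 exonic points are above 0 and 16 of 20 intronic points below it, and the lowest point of the plot is an Nrxn2 intron at -2.81.

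A difference over 1 (log2) was listed in 12 of the 182 member rows of the 8 tables of single conditions (6.59%), where 7.67% to 11.9% of all listed peaks of a table had one. Of the 12, 10 were intronic, and the intronic share of all listed peaks with such a difference is not given here. The largest was the Nrxn2 intron chr19:6474346-6474564, with authors' mean levels of 3.99 in WT_c8 and 6.80 in WT_tr8 (log2), where 1 and 3 animals had a peak. In the Nrxn3 intron chr12:90405691-90406090 the means were 6.45 in KI_c5 and 4.63 in KI_tr5, with 3 and 0 animals called. The Nrxn3 intron with no call in KI_tr8 was listed at 4.85 in KI_tr8 and 6.66 in WT_tr8, and at 6.42 in KI_c8 and 4.97 in KI_tr8. Of Nlgn1, the intron chr3:25993841-25994205 was listed at 7.47 in KI_tr8 and 8.76 in WT_tr8, the intron chr3:25988413-25988988 at 6.59 in KI_c8 and 7.76 in WT_c8, and the intron chr3:25377752-25378547 at 6.26 in WT_c5 and 7.37 in WT_tr5. The largest exonic difference was in the Nrxn2 CDS at chr19:6489727-6490141, with 8.33 in KI_tr8 and 7.07 in WT_tr8, where 3 and 0 animals had a peak. Nlgn2 and Nlgn3 had no difference over 1, and their largest were in the Nlgn2 3'UTR at chr11:69637191-69638123, with 11.12 in KI_tr5 and 11.84 in WT_tr5, and in the Nlgn3 CDS at chrX:98497031-98497669, with 11.06 in WT_c5 and 11.70 in WT_tr5. Of the 220 rows 79 were of Nrxn3, 72 of Nlgn1, 35 of Nrxn2, 19 of Nlgn2 and 15 of Nlgn3, and 122 of the 220 were intronic. Of the Nlgn1 rows, 8 lie upstream of the annotated body used here and were placed in the gene by the annotation of the tables.

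Among 41 binding partners and regulators looked up beside the 5 genes, as over all features, age had the most regions with an unadjusted p under 0.05. All genes were annotated, 32 had a peak in every animal and none was without one. No partner gene passed an adjusted p of 0.05 in the permutation test of peaks per gene, and 3, 3 and 11 of 41 had an unadjusted p under 0.05 for genotype, training and age, beside 6.1%, 3.11% and 18.5% of all genes. Of their tested regions, 3 (1.21%), 4 (1.62%) and 30 (12.1%) had an unadjusted p under 0.05 by Fisher's exact test, beside 1.79%, 1.44% and 9.8% of all regions. None did after adjustment, and 26 of the 30 had more calls at 8 months. The extracellular partners held 20 of these 30 regions among 111 tested, the presynaptic partners of neurexins 2 among 30 and the postsynaptic partners of neuroligins 8 among 93. Of the extracellular partners, Mdga1 held 7 of these regions among 13 tested and Lphn2 4 among 7, all with more calls at 8 months. Lrrtm4 held 2 among 23 tested, both with more calls at 5 months. The other Lrrtm genes and the Cbln genes held none, but each had only 0 to 2 tested regions, too few to compare partner families.

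Over the 24 animals, the gene whose mean centred log2 enrichment followed Nrxn2 most closely was Egr2 (Pearson's r = 0.73), that of Nrxn3 was Zfp943 (0.68), of Nlgn1 Rb1cc1 (0.71), of Nlgn2 Clvs2 (0.75) and of Nlgn3 A430105I19Rik (0.73), among 7711 genes with a region called in every animal. Grid1, a receptor of the cerebellin that neurexins bind, was second for Nlgn2 (0.74). Between the 5 genes themselves r ran from -0.41 for Nrxn2 with Nrxn3 to 0.33 for Nrxn3 with Nlgn1. These are the highest of many values over animals that differ in condition and share the centring, and describe these libraries only.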

How the data were processed

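m6A-IP and input RNA of 24 male mouse hippocampi (3 animals in each of 8 conditions) were sequenced, and the peak lists and comparison tables were analysed here. Per the study's methods the authors mapped reads with STAR 2.7.3a to mm9, kept unique reads outside repeats, and called peaks for each IP against its input with MACS2 2.2.6. The deposited peak lists give the fold enrichment of a peak as a ratio and its q-value as -log10. The 10 deposited tables (DiffBind 2.8.0, DESeq2) give log2 mean levels of conditions, and their columns of fold changes, p and adjusted p were not used. Sequencing depth is unknown from these files.

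Peaks of all animals were joined at 1 bp overlap and placed on the mm9 annotation (NCBIM37, GENCODE). Calls were compared by Fisher's exact test over regions called in 3 to 21 animals, peaks per gene by an exact permutation test stratified on the other factors over genes with a peak in 3 animals or more, both 2-sided, and enrichment by limma 3.58.1 (R 4.3.3), each adjusted by Benjamini-Hochberg over all features. Python 3.11.15 with SciPy 1.17.1 was used, and the Fisher, permutation and limma tests were tested on simulated data. Regions were named where called in every animal, where the unadjusted p of a call test was under 0.05, where the enrichment p was the lowest of a gene, or where a table's difference was among the largest. The members, partner genes and markers were chosen with earlier results of these data known, and the search for runs of A and G was added after the windows were seen. Alternatives were stricter peaks (-log10 q of at least 5), equal numbers of best peaks, 50% overlap, other assignments, centring and tests, and leaving out animals. Leaving out the 2 longest lists and counting each region once were chosen after seeing the data. Animals are separate mice, and peaks carry no strand.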

Additional observations from a re-analysis of the deposited data

How the results depend on the processing

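No paired analysis was possible because the animal numbers of the labels differ between conditions and no animal links any of them. Under the alternatives run, no count of member regions in the enrichment fit left 0, and the counts of listed rows stayed within 1.5 times their value. The share of all tested regions of the series is given in brackets. The member regions with an unadjusted p under 0.05 for genotype numbered 0 with 50% overlap (0.652%) and 2 with equal numbers of best peaks (1.05%). Those for training numbered 2 with best peaks (1.10%) and 2 without the 2 longest lists (1.81%). Those for age numbered 4 at a -log10 q of at least 5 (6.16%) and 2 with best peaks (6.11%). Leaving out 1 animal gave 1 to 5 for genotype, 1 to 4 for training and 9 to 15 for age. The shares of all tested regions moved as well, to 2.42% to 3.73%, 1.97% to 3.22% and 11.3% to 16.5%. For age it was 15 without WT_c8_222 (16.5%), and 14 without WT_tr8_230 (14.5%) or KI_tr8_231 (15.7%).

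Of the adjusted p-values for peaks per gene by age, leaving out 1 animal gave 0.0193 to 0.0825 for Nrxn2, and 0.0183 to 0.0825 for Nlgn2. Both were under 0.05 without any 1 of KI_tr5_2181, WT_c8_222, KI_c8_271, WT_tr8_220, KI_tr8_231 and KI_tr8_294, and Nrxn2 also without WT_c5_2183 or KI_tr5_2214. Counting each region once gave 0.0473 for Nrxn2, and at a -log10 q of at least 5 it was 0.392. The genes of the series past the adjusted threshold for age numbered 0, but 19 with the summit inside the gene body and 258 with each region counted once. Nrxn3 (0.890 to 1) and Nlgn1 (0.935 to 1) changed direction with some animals left out, as did Nlgn1 for training (1 to 1). With best peaks the direction turned for Nrxn3, Nlgn1 and Nlgn3 by genotype, for Nrxn2, Nlgn1 and Nlgn3 by training and for Nlgn3 by age, without the longest lists for Nlgn3 by genotype and Nrxn2 and Nlgn1 by training, and at a -log10 q of at least 5 for Nlgn1 by training, all with an adjusted p of 1. The intron share of Nlgn1 was 79.9% with best peaks, that of Nlgn3 1.74% with best peaks and 3.93% at a -log10 q of at least 5, and that of Nrxn2 17.7% with any exon overlap counted as exonic. The cause of these changes was not tested. Peaks of low enrichment and regions called in few animals set the limit of what could be compared, and an exact test of 3 animals against 3 cannot give a p below 0.1.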

Other observations

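The 3 genes closest to each member in enrichment over animals included, besides those given above, Srebf2 (r = 0.72) and Adcyap1r1 (0.69) for Nrxn2, Ralgps2 (0.67) and Angptl1 (0.66) for Nrxn3, Slc37a3 (0.71) and Ccdc104 (0.68) for Nlgn1, Kctd20 (0.73) for Nlgn2, and Uspl1 (0.66) and Csf1 (0.66) for Nlgn3.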
